A study of Mus musculus with 18 samples.

Results

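The erythroid cells of the pre-puberty library were 165 of its 4092 kept cells, or 4.03% (exact 95% binomial interval 3.45 to 4.68%, counting error only). A cell was kept when it had at least 500 genes detected and less than 20% of its unique molecular identifiers (UMIs, one per captured transcript) from mitochondrial genes. It was called erythroid when the adult haemoglobin genes Hbb-bs, Hbb-bt, Hba-a1 and Hba-a2 made up 20% or more of its UMIs. Those 4 genes chose the cells and are described without a test, and the other 3927 kept cells of the same library served for comparison.

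The library is 1 of 18 that followed the mouse mammary gland from the embryo to after involution, in C57BL/6, FVB/NJ and SWISS mice. Other libraries named below are C57BL/6 at postnatal day 5, C57BL/6 and SWISS adults of 10 weeks, and FVB/NJ at lactation day 10. The pre-puberty library came from mammary glands of C57BL/6 mice, labelled as pre-puberty at 2.5 weeks of age and as epithelium. The study's methods state that glands of several mice were pooled for each time point. Sorted cells lacked Ter119 (a red cell surface antigen), CD31 and CD45 and were stained for CD24 and CD29, and they were captured on the 10x Chromium platform alongside adult C57BL/6 and adult SWISS glands. With 1 library in the group, cells are not replicates, so ratios and shares are given with exact intervals that cover counting error only and with no p-value.

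Red cells form from progenitors that first expand as Kit-positive cells and then pass through a few divisions as erythroblasts while they fill with haemoglobin. During these divisions the cells build up the haem pathway, iron uptake and a spectrin-based membrane skeleton. They then stop replicating DNA, condense and lose the nucleus, clear ribosomes and mitochondria, and circulate as reticulocytes before becoming mature red cells.

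In the erythroid cells the haemoglobin share of UMIs ran from 20.6% through a median of 52.1% to 79.5%. The nearest cell below the limit had 19.7% and the nearest above it 20.6%, with 6 cells from 18 to under 20% and 3 cells from 20 to under 22%. Most other cells were far from the limit, since 3882 of them had a share under 0.1%, 6 had 0.1 to under 1%, and 39 had 1 to under 20%. A further 24 barcodes met the haemoglobin and mitochondrial limits but had fewer than 500 genes. Their haemoglobin share had a median of 93.5%. They are described separately, and whether they are cells, reticulocytes or debris was not tested.

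Hbb-bs, the major adult beta chain of this strain, gave 55.7% of the haemoglobin UMIs in the erythroid cells. Hbb-bt, the second adult beta gene, gave 15.9%. The alpha genes Hba-a1 and Hba-a2 gave 19.7% and 8.71%, a split that is uncertain because their transcripts are nearly identical. All 4 genes had a UMI in every one of the 165 cells.

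The start regions of 3 haemoglobin genes and of Alas2, the erythroid enzyme that opens haem synthesis, are shown because these are the transcripts that define and lead the profile of the cells. The sequences are from RefSeq (build GRCm38.p6, the mouse assembly also called mm10) and run from 250 bases before to 50 bases after the start, 5′ to 3′ on the strand of the gene. Hbb-bs lies at chr7:103827879-103828178 and Hbb-bt at chr7:103813874-103814173 on the minus strand, and Hba-a1 lies at chr11:32283422-32283721 and Alas2 at chrX:150547167-150547466 on the plus strand. Capitals mark matches on either strand to 4 motifs, namely a GATA site (AGATAA), the CACCC box (its own letters), the CCAAT box (its own letters) and a TATA box (TATAAA). Neighbouring matches run together:
Hbb-bs: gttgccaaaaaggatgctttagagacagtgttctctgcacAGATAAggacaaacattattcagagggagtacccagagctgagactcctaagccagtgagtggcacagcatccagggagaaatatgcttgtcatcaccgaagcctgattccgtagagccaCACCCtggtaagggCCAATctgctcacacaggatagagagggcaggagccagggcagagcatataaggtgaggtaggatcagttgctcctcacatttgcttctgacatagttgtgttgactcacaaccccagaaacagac
Hbb-bt: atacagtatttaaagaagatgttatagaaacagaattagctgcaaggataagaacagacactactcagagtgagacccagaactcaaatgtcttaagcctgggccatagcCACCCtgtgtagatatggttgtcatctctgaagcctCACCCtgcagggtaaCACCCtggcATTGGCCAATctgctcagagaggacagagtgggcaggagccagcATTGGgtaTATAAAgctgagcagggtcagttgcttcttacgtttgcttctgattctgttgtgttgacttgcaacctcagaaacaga
Hba-a1: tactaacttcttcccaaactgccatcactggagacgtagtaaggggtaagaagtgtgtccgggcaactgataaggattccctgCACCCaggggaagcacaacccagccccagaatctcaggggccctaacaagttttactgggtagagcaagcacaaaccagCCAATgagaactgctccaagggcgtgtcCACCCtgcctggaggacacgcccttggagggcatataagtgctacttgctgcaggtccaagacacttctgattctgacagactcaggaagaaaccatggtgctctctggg
Alas2: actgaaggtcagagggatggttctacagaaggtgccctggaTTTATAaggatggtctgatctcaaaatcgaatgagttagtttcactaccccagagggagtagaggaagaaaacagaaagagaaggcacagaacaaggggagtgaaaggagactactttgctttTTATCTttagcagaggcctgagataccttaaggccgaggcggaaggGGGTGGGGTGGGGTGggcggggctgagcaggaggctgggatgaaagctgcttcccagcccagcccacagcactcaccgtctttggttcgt

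Hbb-bs held 1 GATA site, 1 CACCC box and 1 CCAAT box. Hbb-bt held no GATA site, 3 CACCC boxes, 3 matches to the CCAAT box and 1 TATA box, and Hba-a1 held 2 CACCC boxes and 1 CCAAT box. In Alas2 the GATA match lay on the opposite strand, 81 to 86 bases before the start, and 3 CACCC boxes on that strand followed in a row. Its 1 match to TATAAA lay on that strand too, 204 to 209 bases before the start. Over the 27025 promoters of this length, 11.4% held a GATA site, 56.7% a CACCC box, 37.9% a CCAAT box and 14.2% a TATA box. Of the 20 genes outside haemoglobin with the highest ratios, named below, 12 had a promoter in the table. A GATA site was in 6 of them (Alas2, Epb42, Hemgn, Kel, Rhd and Trim10), a CACCC box in 8, a CCAAT box in 4 and a TATA box in 4. A match is a description of the letters and not a bound site. Only exact matches were counted, so near forms of a motif stay unmarked, and a missing match does not mean that the site or box is absent.

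The erythroid cells held 1873, a median of 7658 and at most 23334 UMIs, near the median of 7278 in the other cells. With haemoglobin left out, their median was 3698 UMIs. They had 509, a median of 1304 and at most 3975 genes, against a median of 2430 in the other cells. Mitochondrial genes took a median of 1.76% of all their UMIs, haemoglobin included, against 8.03%. Of summed UMIs outside haemoglobin they took 4.44%, against 7.57%, so part of the first gap comes from haemoglobin in the total. The library held 39445446 UMIs in 4183 barcodes, and 84.3% of all its haemoglobin UMIs lay in the erythroid cells. The upper limits that the study set for this library, on gene and UMI numbers, left 4037 kept cells, and all 165 erythroid cells were among them.

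**Figure D1:**
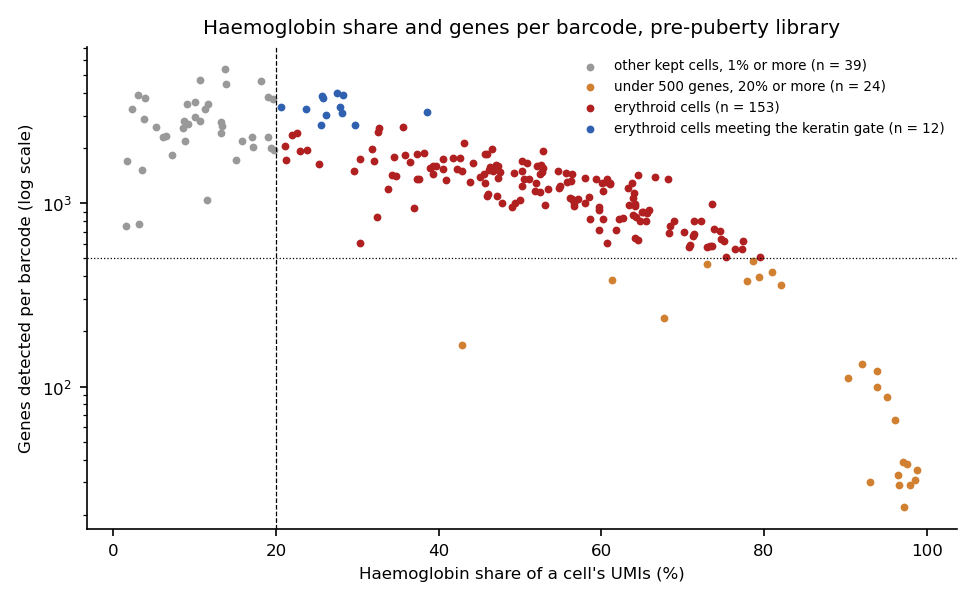
Genes detected per barcode (log scale) against the haemoglobin share of UMIs, 1 point per barcode of the pre-puberty library with a share of 1% or more. The dashed line marks the 20% limit and the dotted line the 500-gene minimum, and the 12 erythroid cells that met the keratin gate (blue) lie below 40% with many genes while the 24 barcodes under the minimum (orange) reach the highest shares.

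Some erythroid cells also carried epithelial transcripts. A keratin gate was met by cells with a UMI for at least 3 of 5 epithelial genes (Epcam, Krt8, Krt18, Krt5 and Krt14), and it took in 3421 of the other cells. It was met by 12 erythroid cells, all under 40% haemoglobin, of which 8 were called doublets by Scrublet, a doublet caller that marked 91 kept cells (2.22%) and 9 erythroid cells. These 12 cells had a median of 3295 genes, and whether they hold 1 cell or several was not tested. Their epithelial list took 0.537% of UMIs outside haemoglobin, against 0.0126% in the 153 erythroid cells that did not meet the gate and 0.708% in the other cells. Leaving out the 12 cells moved the count of lower genes, list shares and the ratios of several named lower genes.

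Immune and endothelial markers were at or near 0. All 8 immune genes, Ptprc (CD45) and Cd74 among them, had no UMI in the 165 cells, which, with 3 counts taken as the limit for a count of 0, allows at most 3 of the 706041 UMIs outside haemoglobin. Of 5 endothelial genes, 4 had no UMI, including Pecam1 (CD31), and Emcn had 1. Among 6 platelet and megakaryocyte genes Gp9 had 28 UMIs in 24 cells, Itga2b 4 and Pf4 1, and Ppbp, Gp1bb and Treml1 had none. Fibroblast genes gave 88 UMIs, 45 of them Col3a1 in 4 cells.

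Outside haemoglobin, expression is given as counts per 1000000 (CPM) of the UMIs that are left when the 4 haemoglobin genes are removed, summed over cells. Each UMI counts 1 transcript from its 3′ end, so these levels do not scale with transcript length. Ratios are log2 of erythroid over other cells with 5 CPM added to both sides. Of 7865 genes with a mean of at least 10 CPM, 784 (9.97%) were 4-fold or more higher in the erythroid cells and 1043 (13.3%) were 4-fold or more lower, and the median gene had a log2 ratio of -0.54. The lower count was 2076 and the higher count 899 without the 12 keratin-gated erythroid cells. The cells were chosen by haemoglobin, so these counts are descriptions. Gp9 was the 1 gene of the platelet list past the filter, at 39.7 CPM against 0.344 CPM (log2 ratio 3.06). A gene this low in the other cells is past 4-fold whenever it passes the filter, so that call carries no further information.

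All 8 genes of haem synthesis were 4-fold or more higher in the erythroid cells, with a median log2 ratio of 5.22. Alas2 had the highest ratio of all genes with at least 50 erythroid UMIs, at 4617 CPM against 10.2 CPM, a log2 ratio of 8.25, and had a UMI in all 165 cells. Cpox and Alad, enzymes of the middle and early steps, reached 1486 and 1857 CPM (log2 ratios 5.75 and 5.37). Fech, which places iron in the ring as the last step, was at 860 CPM (log2 ratio 4.80), the smallest ratio of the list. The list took 1.62% of UMIs outside haemoglobin (95% interval 1.59 to 1.65%) against 0.0199% in the other cells.

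Iron genes followed the same direction, with 10 of 11 past the filter 4-fold or more higher and a median log2 ratio of 2.94. Slc25a37 (mitoferrin), the mitochondrial iron importer, had 2557 CPM and a log2 ratio of 7.0. The transferrin receptor Tfrc had 2170 CPM against 27.1 CPM (log2 ratio 6.08), in 163 of the cells. Ftl1 and Fth1, the ferritin chains, were abundant in both sets and had smaller log2 ratios of 2.45 and 2.34. Tfr2 was below the filter with 11 UMIs.

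Membrane and skeleton genes were all past the filter, and 19 of 19 were 4-fold or more higher, with a median log2 ratio of 5.94. Slc4a1 (band 3, the anion exchanger) was at 4260 CPM against 16.7 CPM, with a log2 ratio of 7.62, and had a UMI in 164 of 165 cells. Rhd, Rhag, Epb42 and Kel, which encode blood group and band 3-associated proteins, had log2 ratios of 7.54, 7.0, 6.64 and 6.61. The spectrin gene Sptb had 489 CPM (log2 ratio 5.22), and the smallest ratio was that of Mpp1, at 3.90.

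For gas transport and protection from oxidation, 8 of 9 genes past the filter were 4-fold or more higher, with a median log2 ratio of 5.00. Car2, the carbonic anhydrase, had 9245 CPM and a log2 ratio of 7.48. Hemgn, a nuclear factor of erythroid cells, had 3313 CPM (log2 ratio 7.28). Prdx2 and Gpx1, which remove peroxides, were among the most abundant at 11372 and 10831 CPM. Car1, another carbonic anhydrase, had only 45 UMIs in 24 cells (63.7 CPM, log2 ratio 3.05), and Cat fell just short of 4-fold at 1.98.

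Among transcription factors of the lineage, 10 of 12 were 4-fold or more higher. Gata1, Klf1, Tal1, Nfe2 and Lmo2 lay close together, between 316 and 347 CPM, with log2 ratios from 5.56 to 5.76. Nfe2, at 0.926 CPM in the other cells, is past 4-fold whenever it passes the filter, so its call carries no further information. Sox6 was the most abundant at 787 CPM (log2 ratio 4.98). Ldb1 and Bcl11a were not higher, with log2 ratios of -1.44 and -0.10. Of the erythropoietin pathway, 3 of 8 genes past the filter were 4-fold or more higher and 2 lower. The receptor gene Epor had 143 CPM (log2 ratio 4.54), the survival genes Pim1 and Bcl2l1 had log2 ratios of 4.43 and 2.58, and Stat5a and Socs3 were lower at -2.31 and -2.87.

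Of 3 early progenitor genes past the filter, none was 4-fold or more higher. Runx1, a transcription factor also used outside the blood lineage, had 64 of the 82 UMIs of the list, in 31 cells (90.6 CPM against 323 CPM, log2 ratio -1.78). Gata2, Cd34 and Flt3 had no UMI in the 165 cells. Kit, the stem cell factor receptor, had 14 UMIs in 4 cells (19.8 CPM against 99.2 CPM), and 13 of those UMIs were in 3 of the keratin-gated cells. Myb had 3 UMIs in 2 cells. Embryonic globins were close to 0 as well, with 2 UMIs of Hbb-y, 1 of Hba-x and none of Hbb-bh1, while the alpha-like theta globin Hbq1b had 295 UMIs in 123 cells. Hbq1a and Hbq1b are near-identical copies, so their split is uncertain.

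Cell cycle genes were higher as well. All 16 genes of the G2 and M phases were 4-fold or more higher, with a median log2 ratio of 5.17, as were 13 of 15 S phase genes, with a median of 3.05. Ube2c, which drives exit from mitosis, had 3872 CPM against 24.2 CPM (log2 ratio 7.05). Mki67 had 2379 CPM (log2 ratio 6.02), and Rrm2, the ribonucleotide reductase subunit of S phase, had 1802 CPM (log2 ratio 6.13). Both lists together took 2.99% of UMIs outside haemoglobin, against 0.0950% in the other cells. The cycle exit list held cycle inhibitors and also the D-type cyclins, which promote entry into S phase. Of its inhibitors, Cdkn2d (p19) was higher and Cdkn1a lower (log2 ratios 4.79 and -2.53). Of its D-type cyclins, Ccnd3 was higher (2.38), and Ccnd1 and Ccnd2 were lower (-2.44 and -2.54).

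Late genes were higher in part. Of 18 organelle clearance and late maturation genes past the filter, 11 were 4-fold or more higher and none was lower, with a median log2 ratio of 3.06. Trim10, Ube2l6 and Isg20 had log2 ratios of 7.17, 6.46 and 6.21. Bnip3l (Nix), which marks mitochondria for removal in reticulocytes, had 843 CPM against 173 CPM, a log2 ratio of 2.25. The autophagy genes Ulk1 and Map1lc3b stayed under 4-fold at 0.70 and 1.19.

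None of 3 nuclear-retained RNAs was 4-fold higher or lower. Malat1, a long RNA that stays in the nucleus, was at 37668 CPM in the erythroid cells and 35555 CPM in the others (log2 ratio 0.08), and 164 of 165 cells held it. Neat1 and Kcnq1ot1 were at lower levels than in the other cells, with log2 ratios of -0.99 and -1.50. The list, most of it Malat1, took 3.84% of UMIs outside haemoglobin in the erythroid cells and 3.71% in the others. Ribosomal protein genes took 15.3%, against 23.8%.

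**Figure D2:**
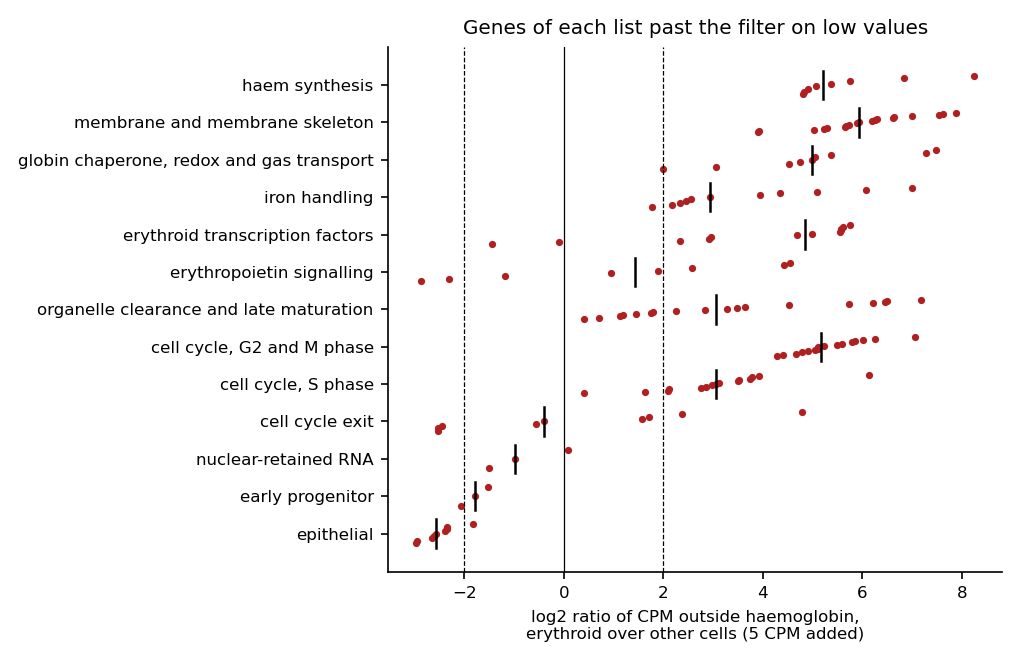
The log2 ratio of CPM outside haemoglobin, erythroid over other cells, for each gene of 13 lists that passed the filter (red points), with the median of the list as a black bar and 4-fold marked by dashed lines. Every haem synthesis, membrane, and G2 and M phase gene lies beyond 4-fold on the higher side, while early progenitor and epithelial genes lie below 0.

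The 20 genes outside haemoglobin with the highest ratios among those with at least 50 erythroid UMIs included, in order, Alas2, Slc4a1, Rhd, Car2, Hemgn, Trim10, Tspo2, Ube2c, Slc25a37, Rhag, Nxpe2, Cldn13, Epb42, Kel, Rsad2, Ctse and Ube2l6. Outside the lists, Tspo2, a cholesterol-binding protein of erythroid cells, had 1255 CPM against 3.94 CPM (log2 ratio 7.14). Ctse, an aspartic protease, had 2387 CPM (log2 ratio 6.55). The interferon-induced gene Rsad2 (log2 ratio 6.61) was seen in 81 of 165 cells, fewer than any other of the 20.

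The 10 lowest ratios among genes with at least 100 CPM in the other cells included those of Fgl2, Upk3a, Apod, Id3, Fgg, Csn3, Prlr, Slc12a2 and Hp. Fgl2 had 2 UMIs in the erythroid cells (2.83 CPM against 220 CPM, log2 ratio -4.84). The keratin-gated other cells had 29.1 CPM of it, and against them its log2 ratio was -2.12. Csn3, a milk casein, had 52.4 CPM against 699 CPM (-3.62), and the prolactin receptor gene Prlr had 59.5 CPM against 767 CPM (-3.58). Without the 12 keratin-gated erythroid cells the log2 ratios were -5.19 for Csn3, -6.83 for Prlr, -5.43 for Fgg (-3.64 with them), -5.38 for Slc12a2 (-3.36) and -3.96 for Hp (-3.31), and that of Fgl2 was -4.72. All 8 of the epithelial genes called lower had log2 ratios between -2.97 and -2.35, and Cdh1 was at -1.83. These ratios include the 12 keratin-gated cells, and the epithelial list took 0.119% of UMIs outside haemoglobin with them and 0.0126% without them.

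Shares of cells with a UMI depend on depth, so each cell was thinned to 500 UMIs outside haemoglobin, which left out no erythroid cell and no keratin-gated cell. Alas2 then had a UMI in 86.1% of erythroid cells (79.8 to 91.0%) and in 0.0877% of keratin-gated cells. Slc4a1 was in 87.9% against 0.205%. Mki67 was in 58.2% (50.3 to 65.8%) against 0.409%, and Rrm2 in 44.2% against 0.322%. Kit was in 0 of 165 erythroid cells and in 4.06% of keratin-gated cells. Unthinned, Alas2 was in 100% and 1.75% of the cells and Kit in 2.42% and 21.8%. Median depths outside haemoglobin were 3698 UMIs in the erythroid and 7681 UMIs in the keratin-gated cells.

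The sorting antigens were read without thinning. Cd24a (CD24) had 9409 CPM against 550 CPM, a log2 ratio of 4.08, and a UMI in all 165 cells. Itgb1 (CD29) was lower, at 48.2 CPM against 237 CPM (log2 ratio -2.19). Protein on the surface was not measured in these files.

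To see how the cells differ among themselves, their UMIs were summed in bins of haemoglobin share, with the keratin-gated cells left out. This gave 31 cells from 20 to under 40%, 68 from 40 to under 60% and 54 from 60 to under 80%, and 30 further cells from 1 to under 20% that the rule had placed among the other cells. The bin from 20 to under 40% still held 1 cell called a doublet by Scrublet and 43 UMIs of the fibroblast gene Col3a1. Median genes per cell went from 1700 to 1363 to 801 across the 3 erythroid bins, and median UMIs outside haemoglobin from 5048 to 3767 to 2001. Bins are ranges of one continuous measure and not cell types. All values within a bin are shares of a fixed total, so a lower share of one list goes with higher shares of others.

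S phase genes were highest in the cells around the 20% limit. Their list took 1.08% of UMIs outside haemoglobin from 10 to under 20%, 1.07% (1.02 to 1.12%) from 20 to under 40%, 0.668% from 40 to under 60% and 0.115% from 60 to under 80%. Per cell, the median share was 1.06%, 0.474% and 0% in the 3 erythroid bins, and 28 of the 54 cells of the top bin had no UMI of the list. With the keratin-gated cells included, the value from 20 to under 40% was 0.639%.

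The G2 and M phase list was highest in the middle bin. It took 2.40% of UMIs outside haemoglobin from 20 to under 40%, 3.35% from 40 to under 60% and 2.18% from 60 to under 80%. Hmgb2 and Ube2c alone held 5106 and 2734 of the 17154 UMIs of the list in the 165 erythroid cells. Per cell the top bin ranged from 0.0746% through a median of 0.711% to 6.69%, so its cells were spread more widely than those of the lowest bin (0.120%, 2.38% and 3.93%). After thinning, Rrm2 had a UMI in 80.6%, 61.8% and 7.41% of cells across the 3 bins, Mki67 in 71.0%, 72.1% and 37.0%, and Ube2c in 58.1%, 72.1% and 50%. Counting intervals for the lowest and highest bins were 62.5 to 92.5% and 2.06 to 17.9% for Rrm2, and 39.1 to 75.5% and 36.1 to 63.9% for Ube2c. They cover the cells of this library and do not test a difference between the bins.

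The haem and membrane lists, as sums, took higher shares in each higher bin, though not every gene rose (Ank1 had a log2 ratio of -0.14 between the top and lowest bins). Haem synthesis took 0.551% of UMIs outside haemoglobin in the 30 cells from 1 to under 20%, then 1.16%, 1.85% and 2.89% in the erythroid bins. Membrane and skeleton genes took 0.788%, 1.61%, 2.71% and 3.63%. Alas2 went from 672 to 2542 to 4867 to 10052 CPM over the same 4 sets. Ribosomal protein genes ran the other way, from 32.6% to 22.2%, 12.1% and 7.45%, and Malat1 was at 9894, 22509, 38739 and 53834 CPM.

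Late genes were concentrated at the top. The organelle clearance and late maturation list took 0.235% in the cells under the limit, then 0.512%, 0.972% and 2.65%. Xpo7, a nuclear exporter needed for condensation of the erythroid nucleus, had 46.5 CPM from 20 to under 40%, 90.8 CPM from 40 to under 60% and 2165 CPM from 60 to under 80%. Bpgm, which makes the oxygen-releasing metabolite 2,3-bisphosphoglycerate, had 93.1, 238 and 3043 CPM. After thinning, Xpo7 was in 3.23%, 5.88% and 61.1% of cells and Bpgm in 0%, 11.8% and 64.8%. Bnip3l went from 320 to 662 to 2497 CPM. Car1 had its highest level below the limit, at 349 CPM, and 93.1, 60.6 and 103 CPM above it.

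**Figure D3:**
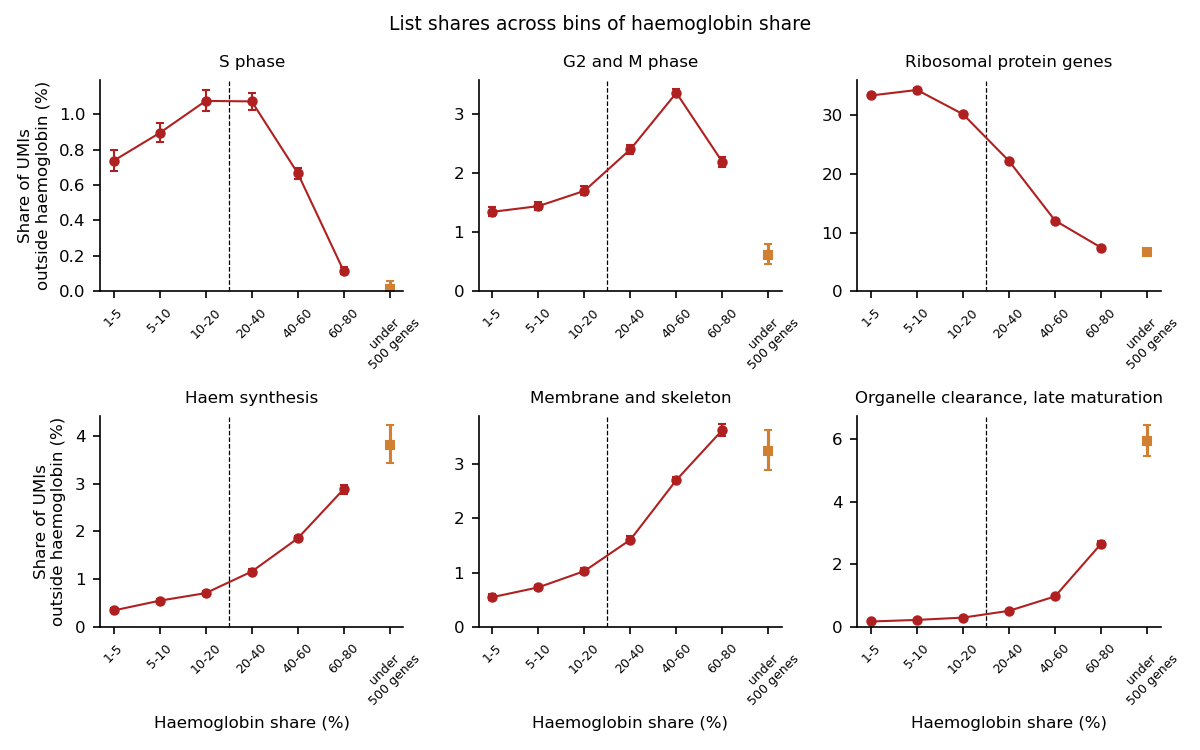
Share of UMIs outside haemoglobin (%) taken by 6 gene lists in bins of haemoglobin share (%), without keratin-gated cells in the first 6 bins, with exact 95% intervals for counting error. The dashed line is the 20% limit and the orange square is the set of 24 barcodes under 500 genes, and S phase genes are lowest where late maturation genes are highest.

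Between the 54 cells of the top bin and the 31 of the lowest, 1444 genes had a mean of at least 100 CPM. Of these, 363 (25.1%) were 2-fold or more higher in the top bin and 386 (26.7%) were 2-fold or more lower, with a median log2 ratio of 0.06. All 13 S phase genes past this filter were among the lower ones, with a median log2 ratio of -3.39, and Mcm3 and Mcm5 of the replicative helicase had -4.52 and -4.33. Mcm3, Mcm5 and others of the 13, at 15.8 to 63.2 CPM in the top bin, passed the filter only through the lowest bin. A gene so low in 1 bin is past 2-fold whenever it passes, so such calls are descriptions. Rrm2 did not depend on this, at 395 CPM in the top bin against 3251 CPM (-3.02). Late maturation genes were 2-fold or more higher in 14 of 16 cases (median 2.41), led by Xpo7 at 5.40. Haem synthesis had 4 of 8 (median 1.10) and membrane genes 10 of 19 (median 1.04), and none of either list was 2-fold lower. G2 and M phase genes split, with 3 of 16 higher and 5 lower. Of 4 erythropoietin genes past the filter 3 were 2-fold or more higher and none lower. The cycle exit list split, with 1 of 4 higher and 1 lower (median 0.29). Chosen after their values were seen, the survival gene Bcl2l1 and the cycle inhibitor Cdkn1b had log2 ratios of 3.72 and 3.34. In the same lists Epor was at -0.92 and Ccnd3 at -1.92. The late genes Xpo7 and Ube2h, the erythropoietin genes Cish and Bcl2l1, and Cdkn1b passed the filter only through the top bin. At 34.9 to 58.2 CPM in the lowest bin, they were past 2-fold whenever they passed, so their calls are descriptions too.

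Outside the lists, chosen after their values were seen, Tcp11l2 had 1 UMI in the lowest bin and 112 in the top bin, a ratio of 152 with a counting interval of 26.8 to 6064. Slfn14, a ribosome-cleaving nuclease, had 40.7 and 1185 CPM, a log2 ratio of 4.70. Cd36 had 58.2 and 1233 CPM (log2 ratio 4.29), and Ube2b, a ubiquitin-conjugating enzyme, had 93.1 and 1810 CPM (4.21). At the lower end stood the replication genes Atad2, Pola1, Dtymk and Clspn, and also Baz1b, Snu13, Syncrip and Arpc5l. Atad2 had 134 UMIs in the lowest and 1 UMI in the top bin. Apart from Ube2b, each gene named here was at 58.2 CPM or less in 1 bin and passed the filter only through the other. Such a gene is past 2-fold whenever it passes, so these calls are descriptions.

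**Figure D4:**
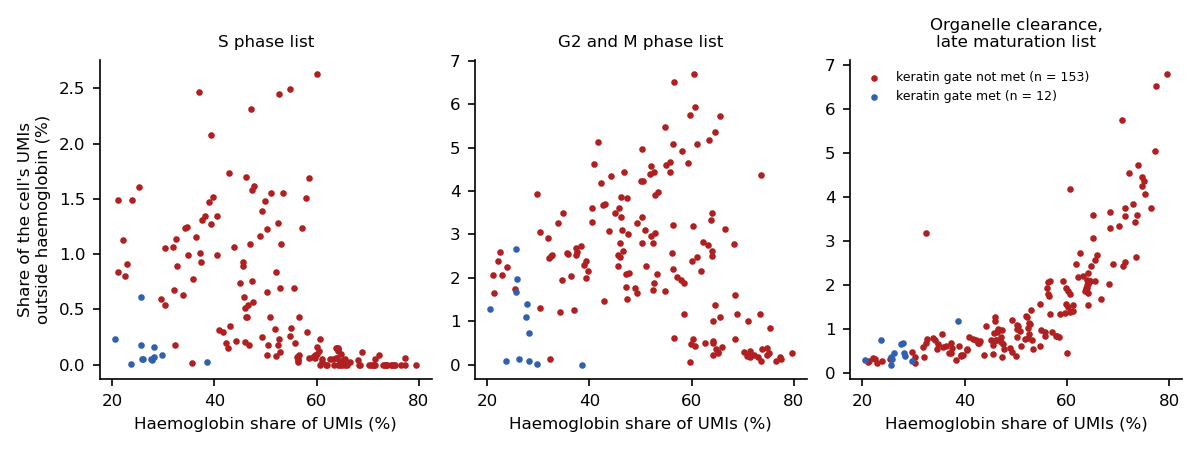
Share of UMIs outside haemoglobin (%) taken by the S phase, G2 and M phase, and late maturation lists in each of the 165 erythroid cells against its haemoglobin share (%), with the 12 keratin-gated cells in blue. S phase shares lie near 0 in most cells above 60%, G2 and M phase shares spread up to 6.69%, and late maturation shares reach 6.79% at the highest haemoglobin shares.

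The 24 barcodes under the gene minimum, whose nature was not tested, had 22, a median of 105.5 and at most 483 genes and a median of 3200 UMIs, of which a median of 239.5 lay outside haemoglobin. Their 9188 summed UMIs outside haemoglobin held the late maturation list at 5.93% (5.46 to 6.43%) and haem synthesis at 3.82%. Alas2 was at 20788 CPM, Bpgm at 14258 CPM and Xpo7 at 5442 CPM. The S phase list was at 0.0109%, with no UMI of Rrm2, Top2a or Pcna, and G2 and M phase genes were at 0.609%. Malat1 was at 65629 CPM in the sum, but its median over the barcodes was 0.343% of UMIs outside haemoglobin, so the barcodes differed widely in it.

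The same rule found 46 cells in 3 of the other 17 libraries and none in 14, among 129618 kept cells. Postnatal day 5 had 1 cell, and both lactation day 10 libraries of FVB/NJ mice had some, with 10 cells in F11 and 35 (0.519%) in D6. The adult C57BL/6 and adult SWISS libraries, processed together with the pre-puberty library, had 0 of 12561 and 0 of 10353 kept cells, which by the same limit of 3 counts allow shares of up to 0.0239% and 0.0290%. Haemoglobin outside the erythroid cells was also highest in the pre-puberty library, at 0.159% of the UMIs of other cells, against 9.7e-05 to 0.0476% elsewhere. The 39 cells from 1 to under 20% held 95.4% of it. In cells under 1% haemoglobin the value was 0.00749%, against 0.00461% in F11, the next highest library. Of the 165 barcodes, 4 (2.42%) recurred in another library, as did 0.968% of the other kept barcodes, and none of the recurring barcodes was an erythroid cell there.

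The 35 cells of the D6 lactation library, the only other set of 20 or more, had lower shares of the haem synthesis, iron, membrane, gas transport, transcription factor and late maturation lists. Their haemoglobin share had a median of 26.7%, against 52.1%. Alas2 was at 1157 CPM (970 to 1369), against 4617 CPM (4460 to 4779). Slc4a1 had no UMI and Mki67 had 1 UMI. The G2 and M phase list was at 0.0257%, against 2.43%, and erythroid transcription factors at 0.0197%, against 0.337%. Endothelial genes took 0.338% and immune genes 0.173% of their UMIs outside haemoglobin, against 0.000142% and 0%. Nuclear-retained RNA (5.50% against 3.84%), cycle exit (0.415% against 0.303%), fibroblast (0.0403% against 0.0125%), early progenitor (0.0189% against 0.0116%) and platelet genes (0.00943% against 0.00467%) also took higher shares in the D6 cells. Strain, stage, age and library differ together between these sets and cannot be told apart.

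**Figure D5:**
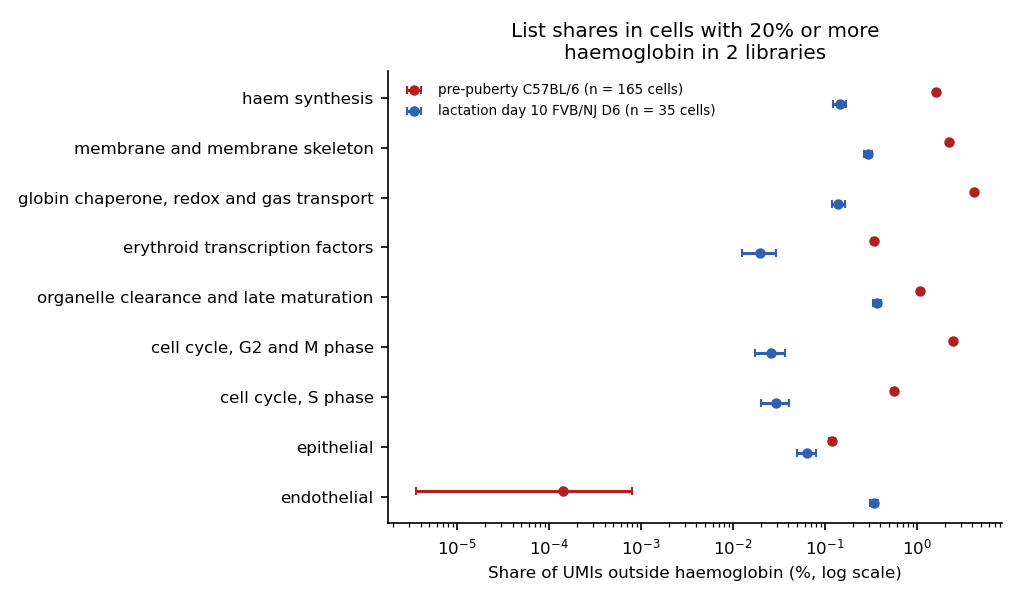
Share of UMIs outside haemoglobin (%, log scale) taken by 9 gene lists in cells with 20% or more haemoglobin, in the pre-puberty library (red, 165 cells) and the D6 lactation day 10 library (blue, 35 cells), with exact 95% intervals for counting error. Of the 9 lists shown, the endothelial list lies at a higher share in the D6 cells and the others at a higher share in the pre-puberty cells, where the epithelial list includes the 12 keratin-gated cells (0.119% with them and 0.0126% without them, against 0.0634% in D6).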

How the data were processed

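Single cells of mammary gland were captured with 10x Chromium and sequenced as 3′ transcript tags. The deposited counts, 1 UMI count per gene and barcode for 31053 features, were made by the authors with Cell Ranger and hold barcodes with at least 500 reads. The submitters' processing notes name version 3.1.0 and build mm10, while the file headers name 3.0.2 or 3.1.0. No normalization had been applied. Cells were filtered and haemoglobin shares computed in Python 3.11.15 (numpy, scipy, pandas), and doublets were called but not removed with Scrublet in scanpy 1.11.5. Symbols were used as deposited, and counting cannot split near-identical genes. Ratio code was tested on simulated counts. The cells and gene lists were chosen with earlier results of these data known. Named genes were the 20 highest ratios with at least 50 erythroid UMIs, the 10 lowest with at least 100 CPM in other cells, and list members, and some of these are not reported here. Depth was 39445446 UMIs. Intervals are exact (Clopper-Pearson or Poisson) at 95%. No test was run, since the group holds 1 library. Alternatives covered the limits, the reference cells, the added CPM, the filter, the totals, the weighting and doublets.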

Additional observations from a re-analysis of the deposited data

How the results depend on the processing

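The values rest on 1 library, so no spread between animals is known, and counting intervals do not include it. No paired analysis was possible because the group holds 1 library and no test was run. The direction of all 30 named genes held under each alternative (420 values), and 418 of these values stayed at 4-fold or more. Csn3 with a limit of 10% haemoglobin (-1.93) was 1 of the 2 exceptions. The other, a named lower gene against the keratin-gated cells, had a log2 ratio of only -0.14, so its levels were nearly equal there. The erythroid share was 2.22% with a limit of 50% haemoglobin, 2.82% with at least 1000 genes and 4.80% with a mitochondrial limit of 10%. The count of genes 4-fold or more higher (784) was 490 with 20 CPM added and 451 with all UMIs in the totals. The count lower (1043) was 491 with a limit of 10% haemoglobin, 2410 with 50%, 1742 with 1 CPM added, 231 with 20 CPM added, 421 with a mean of at least 50 CPM, 2092 with all UMIs in the totals, 1938 as a mean over cells and 1823 without Scrublet doublets. Alternatives chosen after seeing the data left out the keratin-gated erythroid cells, which gave 2076.

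List shares of UMIs (haem synthesis, membrane, late maturation, cell cycle and nuclear-retained RNA, in that order) moved with the choice of cells. They were 1.32%, 1.84%, 0.858%, 2.67% and 3.38% with a limit of 10% haemoglobin, 2.46%, 3.33%, 1.91%, 3.19% and 4.97% with 50%, and 1.42%, 2.06%, 0.776%, 3.25% and 3.67% with at least 1000 genes. With all UMIs in the totals they were 0.836%, 1.16%, 0.550%, 1.54% and 1.98%, by construction, since haemoglobin then counts in the total. As a mean over cells they were 2.02%, 2.68%, 1.51%, 2.90% and 4.02%, and without the keratin-gated cells 1.87%, 2.58%, 1.21%, 3.46% and 3.78%. Without Scrublet doublets the first 4 were 1.80%, 2.46%, 1.16% and 3.29%. Late maturation was 1.13% with no gene minimum. The S phase share from 20 to under 40% haemoglobin (0.639%) was 0.921% without Scrublet doublets and 1.07% without keratin-gated cells. Except for the totals, the cause was not tested.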
